A study of Mus musculus with 2 samples.

Results

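The genes described here are 9 regulators of the NF-kB pathway (Nfkbia, Nfkbiz, Nfkb1, Nfkb2, Rel, Relb, Tnfaip3, Traf1 and Tlr4) and Tnip3, 10 of the 31053 genes in the deposited count tables. The 9 were listed by function. Tnip3 was chosen because its level in the whole library was lower in the library labelled KO, so that difference is a description and supports nothing. The cells were labelled LSKCD150+ HSCs from bone marrow of mice, that is, lineage-negative cells with Sca-1 and Kit on the surface, sorted for CD150, a SLAM family receptor. 1 library was labelled RUNX1 KO and 1 RUNX1 WT, each of about 10000 sorted cells read by 10x 3′ sequencing of single cells, beside 11398 barcodes in the KO-labelled and 9969 in the WT table. Per the design text the mouse model was Runx1F/F Mx1-Cre, in which loxP sites flank Runx1 and the interferon-inducible Mx1 promoter drives Cre in blood and other cells. Whether the WT mice carried Mx1-Cre or the floxed allele, whether either group was given an interferon inducer, and the age and number of the animals are not given in the sources used here.

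NF-kB is a family of dimeric transcription factors that wait in the cytoplasm bound to inhibitors. Signals from receptors such as Toll-like and TNF receptors activate a kinase complex that marks the inhibitor for destruction, the dimer enters the nucleus, and among the genes it switches on are its own inhibitors, which end the response. In haematopoietic stem cells the pathway is known for the response to infection and inflammation and for a part in maintaining the cells. RUNX1 is a transcription factor of blood development and of megakaryocyte and stem cell genes.

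Whole-library values frame what follows. After cells with fewer than 500 genes or more than 10% mitochondrial UMIs were left out, 10769 KO-labelled cells (median 9310 UMIs) and 9472 WT cells (median 9884 UMIs) were kept. Runx1 itself was higher in the library labelled KO, at 196 CPM (the gene's share of the UMIs summed, scaled to a fixed total) against 104 CPM in the WT library. It was higher in each class of cells described below, by 1.57-fold in Car1-positive to 2.1-fold in Pf4-positive cells. The sources used here do not place the 3′ tags relative to the deleted part, so this value does not check the genotype. Whether the labels of the libraries are right could not be settled from the files, and each direction below rests on the label of the library labelled KO. Of the KO-labelled cells 8927 were female and 973 male by Xist and Y-linked UMIs, and of the WT cells 9 were female and 6690 male. The libraries shared 39 barcodes, 33 of them among kept cells. Among markers of other cells, the 7 neutrophil genes summed to 632 CPM in the KO-labelled and 115 CPM in the WT library. Each of the 7 was higher. The 9 megakaryocyte genes summed to 953 CPM in KO-labelled and 1859 CPM in WT cells, with 5 higher and 4 lower. Pf4 alone had 485 CPM in KO-labelled and 1483 CPM in WT cells, so the lower sum follows that gene. The 6 basophil and mast cell genes summed to 180 CPM in KO-labelled and 298 CPM in WT cells, with 2 higher and 4 lower. A cluster led by Prss34 and Mcpt8 held 0 KO-labelled and 79 WT cells, and 69.6% of the latter had an Mpo UMI. None of these genes was at 0, and their part in the results below was not tested. The cells carried the genes of the sort: Kit had 141 CPM in the KO-labelled and 150 CPM in the WT library, Ly6a (Sca-1) 49.0 CPM in KO-labelled and 35.5 CPM in WT cells, and Slamf1 (CD150) 28.5 CPM in KO-labelled and 17.5 CPM in WT cells. With 1 library per genotype nothing was tested. Each interval below is an exact 95% interval that covers counting error only, not differences between animals or libraries. In summed counts, fewer cells with a gene and less RNA per cell cannot be told apart. Shares of cells are given as well, but where most cells with a gene hold a single UMI they cannot separate these either.

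The promoters of Tnip3, Nfkbia and Traf1 are shown because Tnip3 had the largest difference of the 10 between the libraries, Nfkbia is the inhibitor that NF-kB classically switches on, and Traf1 had the higher level in cells with a Tnip3 UMI in both libraries, as described below. The sequences are from RefSeq on GRCm38.p6, in the direction of transcription, and run from 250 bases before the transcript start through its first 30 bases. Capitals mark matches to the kappaB consensus and to TGTGGT, the core of the sequence that RUNX proteins bind, searched on both strands.
Tnip3, chr6:65590148-65590427, plus strand: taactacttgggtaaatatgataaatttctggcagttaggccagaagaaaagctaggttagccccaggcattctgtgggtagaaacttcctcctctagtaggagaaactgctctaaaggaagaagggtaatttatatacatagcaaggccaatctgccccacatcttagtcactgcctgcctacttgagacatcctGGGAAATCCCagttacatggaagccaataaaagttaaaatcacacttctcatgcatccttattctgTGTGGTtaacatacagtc
Nfkbia, chr12:55492618-55492897, minus strand: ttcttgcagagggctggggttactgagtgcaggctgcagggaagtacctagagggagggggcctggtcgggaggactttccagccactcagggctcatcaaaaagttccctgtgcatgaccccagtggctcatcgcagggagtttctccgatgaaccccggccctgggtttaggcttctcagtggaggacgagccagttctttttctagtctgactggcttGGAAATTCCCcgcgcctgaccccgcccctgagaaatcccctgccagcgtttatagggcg
Traf1, chr2:34961743-34962022, minus strand: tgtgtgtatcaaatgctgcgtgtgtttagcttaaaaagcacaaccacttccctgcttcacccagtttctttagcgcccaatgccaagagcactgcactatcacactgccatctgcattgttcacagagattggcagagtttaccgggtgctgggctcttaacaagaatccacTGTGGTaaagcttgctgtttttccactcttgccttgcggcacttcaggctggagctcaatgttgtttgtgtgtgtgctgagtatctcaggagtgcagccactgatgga

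In the Tnip3 promoter the kappaB match GGGAAATCCC, which fits the consensus on either strand, began 54 bases before the transcript start. TGTGGT began at base 13 of the transcript. In the Nfkbia promoter a kappaB match on the opposite strand began 29 bases before the start. The Traf1 promoter had TGTGGT 78 bases before the start and no kappaB match. Promoter windows were found for 6 of the 10 genes. Of these, 5 held the kappaB consensus (Tnip3, Tnfaip3, Nfkbia, Nfkb2 and Rel) and 3 held TGTGGT (Tnip3, Rel and Traf1). Some genes have several windows: of the 9 windows of these genes, each searched over 300 bases, 7 held the kappaB consensus and 3 held TGTGGT. Windows 2 and 3 of Nfkb2 overlap and share a kappaB match, so that site is counted in both. Over all 32544 distinct promoter windows of the same length, 4.53% held the kappaB consensus and 16.7% held TGTGGT. A match of letters is a description and does not show binding.

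Tnip3 was far lower in the library labelled KO. Its protein, ABIN-3, is known in human cells as a partner of the ubiquitin-editing enzyme A20 and as a brake on NF-kB. What the mouse protein does was not examined here. The gene lies on chromosome 6 from 65525313 to 65634040, on the plus strand of GRCm38 in the GENCODE annotation. The RefSeq transcript start used for the promoter lies inside that interval, so the annotations place the start differently. It had 614 UMIs (5.15 CPM, interval 4.75 to 5.57) in the KO-labelled library, against 2784 UMIs (24.7 CPM, 23.8 to 25.7) in the WT library. That was 4.8-fold lower (4.40 to 5.25). Among the 5904 genes that reached 20 CPM in 1 library or both, 10 had a lower ratio. With a stricter cell filter (1000 genes, 5% mitochondrial UMIs) it had 5.02 CPM in the KO-labelled and 17.7 CPM in the WT library, which put it under that level. That filter kept 8701 of the 10769 KO-labelled cells but 4985 of the 9472 WT cells.

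A Tnip3 UMI was found in fewer KO-labelled than WT cells. With each cell thinned to 3000 UMIs, 1.53% of KO-labelled cells (1.30 to 1.78) and 7.93% of WT cells (7.39 to 8.50) had a Tnip3 UMI. Without thinning these shares were 4.87% of KO-labelled and 21.4% of WT cells. Cells with a UMI held 1.05 of them on average in the KO-labelled library and 1.13 in the WT library, and the highest count in a cell after thinning was 2 in the KO-labelled and 5 in the WT library. Most cells with a Tnip3 UMI thus showed a single one in either library. These shares therefore cannot tell fewer cells with the transcript from less of it per cell.

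The other 9 genes were each less than 1.5-fold apart between the libraries. The plot of the 10 genes by library shows the pairs of values.

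**Figure D1:**
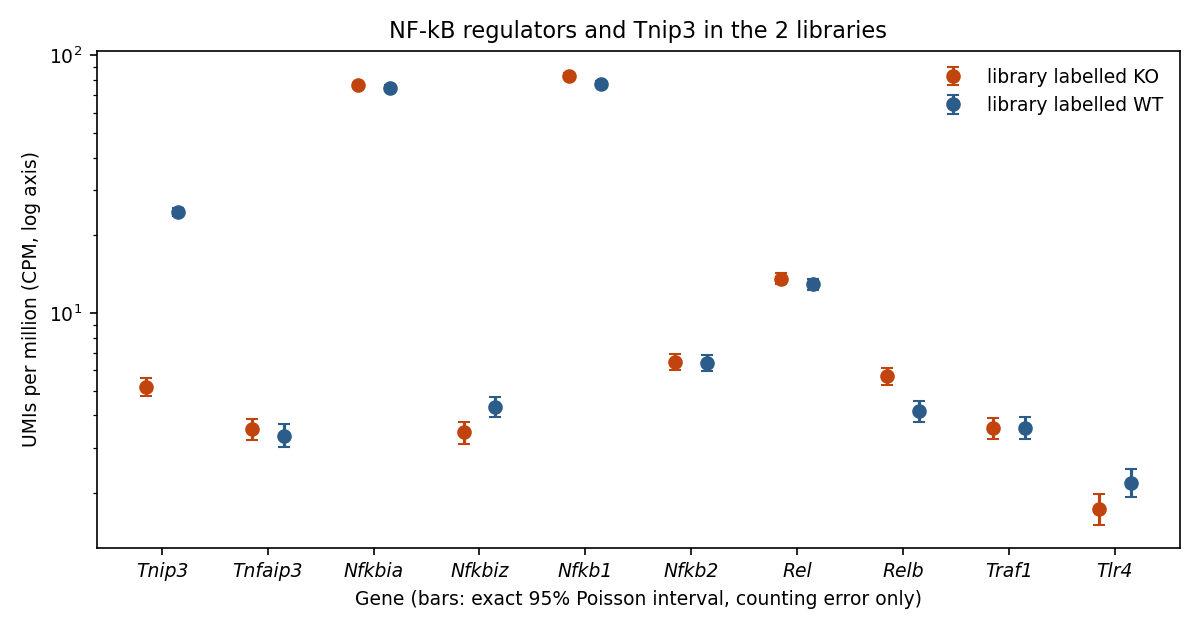
CPM (log axis) of each of the 10 genes in the library labelled KO (orange, left) and the library labelled WT (blue, right), with exact 95% Poisson intervals. Tnip3 stands at 5.15 CPM in KO-labelled and 24.7 CPM in WT cells, while for Nfkbia, Nfkb1, Nfkb2, Rel, Tnfaip3 and Traf1 the pairs lie close together.

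Among the genes for NF-kB subunits, Nfkb1 (precursor of p50) had 83.6 CPM in the KO-labelled library and 77.7 CPM in the WT library, a ratio of 1.08 (1.05 to 1.11). Nfkb2 (precursor of p52) had 6.47 CPM in KO-labelled and 6.39 CPM in WT cells, a ratio of 1.01 (0.914 to 1.12). Rel, which encodes the subunit c-Rel, had 13.6 CPM in KO-labelled and 12.9 CPM in WT cells, a ratio of 1.05 (0.979 to 1.13). Relb, a subunit of the alternative pathway, was the exception, with 5.68 CPM in the KO-labelled and 4.15 CPM in the WT library and a ratio of 1.37 (1.21 to 1.54). Rela, the remaining subunit gene, was close to 1, at 34.8 CPM in KO-labelled and 35.1 CPM in WT cells.

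Of the inhibitor genes, Nfkbia, which encodes the classical inhibitor IkB-alpha, had 76.9 CPM in the KO-labelled library and 75.1 CPM in the WT library, a ratio of 1.02 (0.995 to 1.06). Nfkbiz, which encodes the nuclear cofactor IkB-zeta, had 3.44 CPM in KO-labelled and 4.33 CPM in WT cells, a ratio of 0.794 (0.694 to 0.907). Tnfaip3, which encodes A20 itself, had 3.53 CPM in KO-labelled and 3.34 CPM in WT cells, a ratio of 1.06 (0.918 to 1.22). For Nfkbia and for Tnfaip3, whose product ABIN-3 binds in human cells, the interval included 1.

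Traf1, a signalling adaptor of TNF receptors and a known target of NF-kB, had 3.57 CPM in the KO-labelled and 3.58 CPM in the WT library, a ratio of 0.998 (0.869 to 1.15). Tlr4, the receptor for bacterial lipopolysaccharide, had 1.73 CPM in KO-labelled and 2.19 CPM in WT cells, a ratio of 0.788 (0.652 to 0.952), on 206 UMIs in the KO-labelled and 247 in the WT library. Over the 10 genes 6 ratios were above 1 and 4 below, with a median log2 ratio of 0.027, beside -0.070 over all genes at 20 CPM. Of all genes at 20 CPM 34.9% had a ratio above 1, though most of the 10 lay below that level. Only Nfkb1, Nfkbia and Tnip3 reached 20 CPM in either library, and of these 3 Tnip3 was at least 1.5-fold apart. Among all 5904 such genes 4.29% were at least 1.5-fold apart in either direction and 2.03% were at least 1.5-fold lower. Since Tnip3 was chosen for this difference, nothing is read from its count.

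In thinned cells the shares gave the same picture. A UMI of Nfkbia was found in 20.3% of KO-labelled and 19.9% of WT cells, and one of Nfkb1 in 23.3% of KO-labelled and 21.3% of WT cells. For Rel the shares were 4.54% of KO-labelled and 4.07% of WT cells. For the other 6 genes they lay between 0.543% (Tlr4) and 2.11% (Nfkb2) in the KO-labelled library and between 0.741% (Tlr4) and 2.04% (Nfkb2) in the WT library. A cell without a UMI of these genes therefore says little about that cell.

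Cells were then grouped by a UMI of Procr (a receptor gene of stem cells), by at least 3 UMIs of Pf4 (a platelet chemokine), by a UMI of Mpo (a granule enzyme of myeloid progenitors) or by a UMI of Car1 (a carbonic anhydrase of red cell progenitors). Other markers mostly followed these classes. Hlf, a stem cell factor, had 247 CPM in KO-labelled and 242 CPM in WT Procr-positive cells, beside 74.3 CPM in KO-labelled and 79.9 CPM in WT cells of all kinds. Slamf1, the gene of the sorting antigen CD150, went the other way in the KO-labelled library. It had 17.4 CPM in KO-labelled Procr-positive cells, beside 28.5 CPM in all KO-labelled cells. In WT cells it had 20.5 CPM in Procr-positive cells, beside 17.5 CPM in all cells. Itga2b had 470 CPM in KO-labelled and 309 CPM in WT Pf4-positive cells, Elane 1415 CPM in KO-labelled and 1248 CPM in WT Mpo-positive cells and Klf1 140 CPM in KO-labelled and 109 CPM in WT Car1-positive cells. The classes overlap and differ in size: Procr-positive cells were 788 of the KO-labelled and 938 of the WT cells, Pf4-positive cells 2042 of the KO-labelled and 3178 of the WT cells, Mpo-positive cells 2551 of the KO-labelled and 2018 of the WT cells, and Car1-positive cells 2302 of the KO-labelled and 2379 of the WT cells. None of the 4 was found in 4480 KO-labelled and 2879 WT cells. Median depth was lower in Procr-positive cells (7776 UMIs in KO-labelled and 7690 in WT cells) than in Pf4-positive cells (12170 UMIs in KO-labelled and 12600 in WT cells).

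Tnip3 was lower in the KO-labelled library in each class, and in both libraries Procr-positive cells had the highest level. Procr-positive cells had 9.79 CPM (7.73 to 12.2) in the KO-labelled library, against 62.3 CPM (57.5 to 67.4) in the WT library, 6.36-fold lower (5.01 to 8.17). Cells with none of the 4 markers had 5.57 CPM in KO-labelled and 31.4 CPM in WT cells, 5.64-fold lower (4.85 to 6.60), and Car1-positive cells 2.16 CPM in KO-labelled and 11.9 CPM in WT cells, 5.51-fold lower (4.28 to 7.19). Mpo-positive cells had 4.11 CPM in KO-labelled and 16.6 CPM in WT cells, 4.04-fold lower (3.35 to 4.89). The smallest difference was in Pf4-positive cells, with 8.60 CPM (7.53 to 9.77) in the KO-labelled and 25.5 CPM (24.1 to 27.0) in the WT library, 2.96-fold lower (2.57 to 3.43). Pf4 itself had 1991 CPM in KO-labelled and 3479 CPM in WT cells of that class. The same cut on Pf4 therefore need not take like cells in both libraries, and this also touches the class with none of the 4. The order of the classes by difference was not tested.

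The order of the classes was less clear in the KO-labelled library than in the WT library. In the KO-labelled library the order was Procr, Pf4, none of the 4, Mpo and Car1, and the intervals of Procr-positive and Pf4-positive cells overlapped. In the WT library the order was Procr, none of the 4, Pf4, Mpo and Car1, and no intervals of neighbours overlapped. The thinned share of Procr-positive cells with a Tnip3 UMI was 2.30% (1.37 to 3.61) in the KO-labelled and 19.9% (17.4 to 22.6) in the WT library. That of Pf4-positive cells was 2.355% (1.74 to 3.11) in the KO-labelled and 7.63% (6.73 to 8.61) in the WT library. By share, Procr-positive cells were thus not the highest class of the KO-labelled library. The share in Car1-positive cells, the lowest of the classes, was 0.829% in the KO-labelled and 4.2% in the WT library, at median depths of 11090 UMIs in KO-labelled and 11880 in WT cells before thinning.

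**Figure D2:**
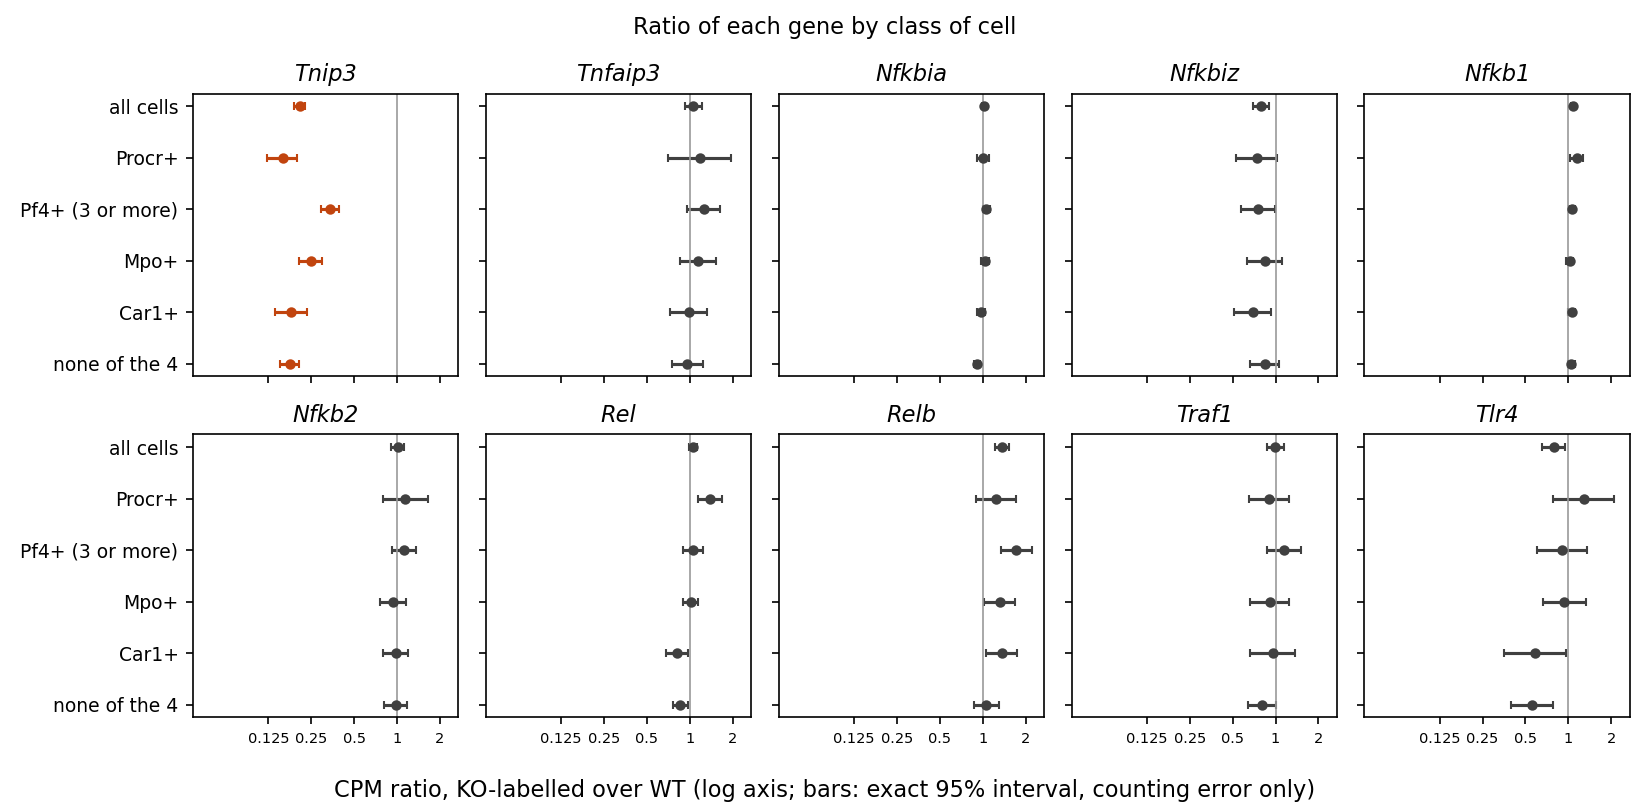
CPM ratio, KO-labelled over WT (log axis), of each of the 10 genes over all cells and in each class, with exact 95% intervals for counting error. For Tnip3 (orange) each interval lies below 1, from 0.157 in Procr-positive to 0.337 in Pf4-positive cells, while most intervals of the other genes include 1 or lie near it.

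Among the other genes the classes gave mostly small differences. Nfkbia had ratios between 0.915 (none of the 4) and 1.06 (Pf4-positive), and Nfkb1 between 1.02 (Mpo-positive) and 1.14 (Procr-positive). Relb was above 1 in each class, up to 1.72 (1.34 to 2.22) in Pf4-positive cells, where it had 4.70 CPM in the KO-labelled and 2.73 CPM in the WT library. Nfkbiz was below 1 in each class, from 0.693 (0.514 to 0.929) in Car1-positive cells to 0.840 in cells with none of the 4. Both genes had few UMIs per class, and several of these intervals included 1. With thinned cells the Relb ratio in Mpo-positive cells was 0.902 (0.526 to 1.56), and with at least 10 UMIs of Pf4 that in Pf4-positive cells was 1.21 (0.755 to 1.89).

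Rel and Tlr4 differed between classes. In Procr-positive cells Rel had 28.2 CPM in the KO-labelled and 20.5 CPM in the WT library, a ratio of 1.38 (1.14 to 1.68). In Car1-positive cells it had 6.83 CPM in KO-labelled and 8.43 CPM in WT cells, a ratio of 0.810 (0.678 to 0.966). Tlr4 had 1.81 CPM in KO-labelled and 3.25 CPM in WT cells with none of the 4 markers, a ratio of 0.555 (0.396 to 0.775), but 4.45 CPM in KO-labelled and 3.48 CPM in WT Procr-positive cells, where the interval of 0.778 to 2.11 included 1. The difference between classes was not tested. For Rel in Car1-positive cells the interval included 1 with thinned cells (ratio 0.910, 0.636 to 1.30) and with cells of only that class (ratio 0.803, 0.608 to 1.06). Traf1 was highest in Procr-positive cells of both libraries, at 8.65 CPM in KO-labelled and 9.64 CPM in WT cells, and lowest in Car1-positive cells, at 1.83 CPM in KO-labelled and 1.90 CPM in WT cells.

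To see finer kinds of cell, the cells were clustered without the 10 genes and without genes that differed between the libraries. Of 18 clusters 13 held at least 50 cells of each library. One of them was led by Ly6a, Procr and Ltb, with Hlf also among its first 10 genes. It is called stem-like here, and it held 1701 KO-labelled and 1309 WT cells. Tnip3 peaked there in the WT library and did not in the KO-labelled one.

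In the stem-like cluster Tnip3 had 91 UMIs (8.0 CPM, 6.44 to 9.82) in the KO-labelled library, against 740 UMIs (90.8 CPM, 84.4 to 97.6) in the WT library, a ratio of 0.0881 (0.0701 to 0.110). A Tnip3 UMI was found in 2.14% of its KO-labelled cells and 22.5% of its WT cells after thinning. This cluster gave 14.8% of the Tnip3 UMIs of the KO-labelled library and 26.6% of those of the WT library. Within it the difference was close in cells with a Procr UMI (10.4 CPM in KO-labelled and 107 CPM in WT cells, ratio 0.0976) and in cells without one (7.10 CPM in KO-labelled and 79.5 CPM in WT cells, ratio 0.0894). Procr-positive cells outside it had 9.40 CPM in KO-labelled and 39.8 CPM in WT cells, a ratio of 0.236 (0.168 to 0.325).

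Elsewhere Tnip3 had intermediate levels in clusters led by cell cycle genes or by Pf4. The cluster led by Ung and Hells, genes of S phase, had 6.78 CPM in KO-labelled and 37.1 CPM in WT cells, and the one led by Pimreg, Cenpf and Aspm, genes of mitosis, had 5.96 CPM in KO-labelled and 26.4 CPM in WT cells. The megakaryocyte-like cluster, led by Clec1b and Pf4, had 6.85 CPM in KO-labelled and 21.9 CPM in WT cells. A second Pf4 cluster, led also by Cavin2 and Serpine2, had the highest level of the KO-labelled library, 10.2 CPM (7.96 to 12.8), beside 24.0 CPM in the WT library. That value and the 8.0 CPM of the stem-like cluster did not differ beyond their intervals.

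Levels were lowest in clusters led by genes of myeloid and red cell progenitors. The cluster led by Elane and Mpo, like granulocyte and monocyte progenitors, had 0.511 CPM in the KO-labelled library and 4.54 CPM in the WT library, on 5 UMIs in KO-labelled and 35 in WT cells. The one led by Mt2, Car1 and Ermap had 0.506 CPM in KO-labelled and 3.04 CPM in WT cells, on 6 UMIs in KO-labelled and 35 in WT cells, and 0 of its 420 thinned KO-labelled cells had a UMI (exact interval up to 0.875%), beside 1.08% of its thinned WT cells. Before thinning 1.43% of its KO-labelled and 6.48% of its WT cells had one. In the clusters led by Lgals3 and Cd74 and by Trib2 and Dnah12 the intervals of the ratio included 1. Tnip3 was lower in the KO-labelled library in 13 of the 13 clusters, and the interval lay below 1 in 11. For comparison, of 8946 genes with at least 20 UMIs over both libraries in each of these clusters, 9.18% were lower in each.

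**Figure D3:**
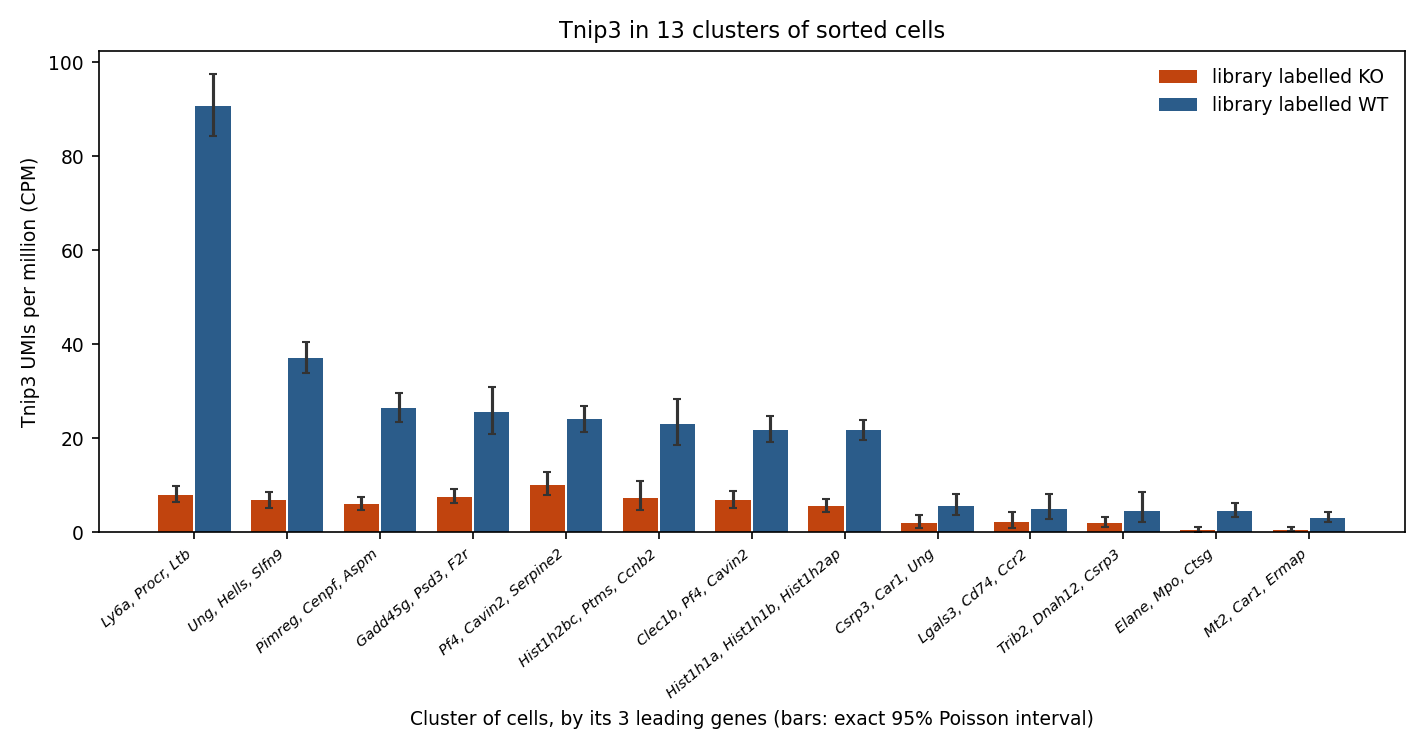
Tnip3 CPM in each of 13 clusters, named by 3 leading genes and ordered by the WT level, in the library labelled KO (orange, left) and the library labelled WT (blue, right), with exact 95% Poisson intervals. KO-labelled levels run from 0.506 to 10.2 CPM, and WT levels from 3.04 to 90.8 CPM with the highest in the Ly6a, Procr and Ltb cluster.

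In the stem-like cluster several of the other genes had an interval that left out 1, some lower and some higher. The share of all genes with such an interval was not worked out, so nothing is read from their number. Nfkb1, with 99.05 CPM in KO-labelled and 87.0 CPM in WT cells, had a ratio of 1.14 (1.04 to 1.25), and Nfkb2, with 6.77 CPM in KO-labelled and 10.1 CPM in WT cells, one of 0.673 (0.486 to 0.930). Nfkbia had 99.6 CPM in the KO-labelled and 116 CPM in the WT library (ratio 0.860, 0.788 to 0.938). Nfkbiz had its highest cluster level there in both libraries, 9.49 CPM in KO-labelled and 13.9 CPM in WT cells (ratio 0.685, 0.521 to 0.899), and so did Traf1, with 9.84 CPM in KO-labelled and 14.7 CPM in WT cells (ratio 0.669, 0.512 to 0.872). Rel had 31.2 CPM in KO-labelled and 24.2 CPM in WT cells there, a ratio of 1.29 (1.08 to 1.54), the highest of its 13 cluster ratios. Its level was highest in the cluster led by Lgals3, Cd74 and Ccr2, at 42.4 CPM in KO-labelled and 49.1 CPM in WT cells.

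Over the 13 clusters Nfkbiz was lower in 12 and higher in 1, with the interval below 1 in 3 clusters and above 1 in 0. Relb was higher in 10 and lower in 3, and the interval lay above 1 in 2. Nfkbia was higher in 8 and lower in 5, and Nfkb1 higher in 9 and lower in 4. The cluster led by Mt2, Car1 and Ermap had the lowest level of Nfkbia (31.2 CPM in KO-labelled and 33.2 CPM in WT cells), Nfkbiz (1.10 CPM in KO-labelled and 1.57 CPM in WT cells), Nfkb1 (46.4 CPM in KO-labelled and 52.2 CPM in WT cells) and Rel (0.759 CPM in KO-labelled and 2.26 CPM in WT cells) in both libraries. For these 4 genes the stem-like cluster was higher than that cluster in either library. Nfkb2, Traf1 and Tnip3 were also lowest there in both libraries. The Mt2, Car1 and Ermap cluster had a median of 27950 UMIs in KO-labelled and 23680 in WT cells. The stem-like cluster had 6470 in KO-labelled and 5950 in WT cells. A lower share of the UMIs therefore need not mean less RNA per cell.

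Genes outside the list of 10 were searched for a level that followed that of Tnip3 over clusters. The genes named here were among the 8 with the highest Pearson correlation of log2(CPM + 1) with Tnip3, among 5673 genes, over the WT clusters with at least 50 cells. Over 14 KO-labelled clusters their correlations ran from 0.827 (Hlf) to 0.941 (Csgalnact1). Over 15 WT clusters, which chose them, they were 0.966 for Tie1, 0.962 for Nfat5, 0.960 for Mecom, 0.946 for Esam, 0.941 for Csgalnact1, 0.937 for Hlf and 0.933 for Myct1. Mecom and Hlf encode transcription factors of stem cells, and Tie1 and Esam encode endothelial and stem cell surface proteins. Clusters of 1 library share that library, and the highest of many correlations over few points are high by selection, so these are descriptions.

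In the stem-like cluster these genes were less far apart between libraries than Tnip3. Tnip3 was chosen for its fall in the library labelled KO, so nothing is read from that order. Mecom had 83.1 CPM in the KO-labelled and 222 CPM in the WT library (ratio 0.374). Tie1 had 26.9 CPM in KO-labelled and 48.8 CPM in WT cells (ratio 0.551), and Nfat5 59.0 CPM in KO-labelled and 84.5 CPM in WT cells (ratio 0.698). Esam (63.3 CPM in KO-labelled and 66.0 CPM in WT cells, ratio 0.959), Myct1 (162 CPM in KO-labelled and 161 CPM in WT cells, ratio 1.0) and Hlf (293 CPM in KO-labelled and 336 CPM in WT cells, ratio 0.870) were nearer to 1, and Csgalnact1 was at 1.27. Each of these ratios was above the 0.0881 of Tnip3 in the same cells.

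**Figure D4:**
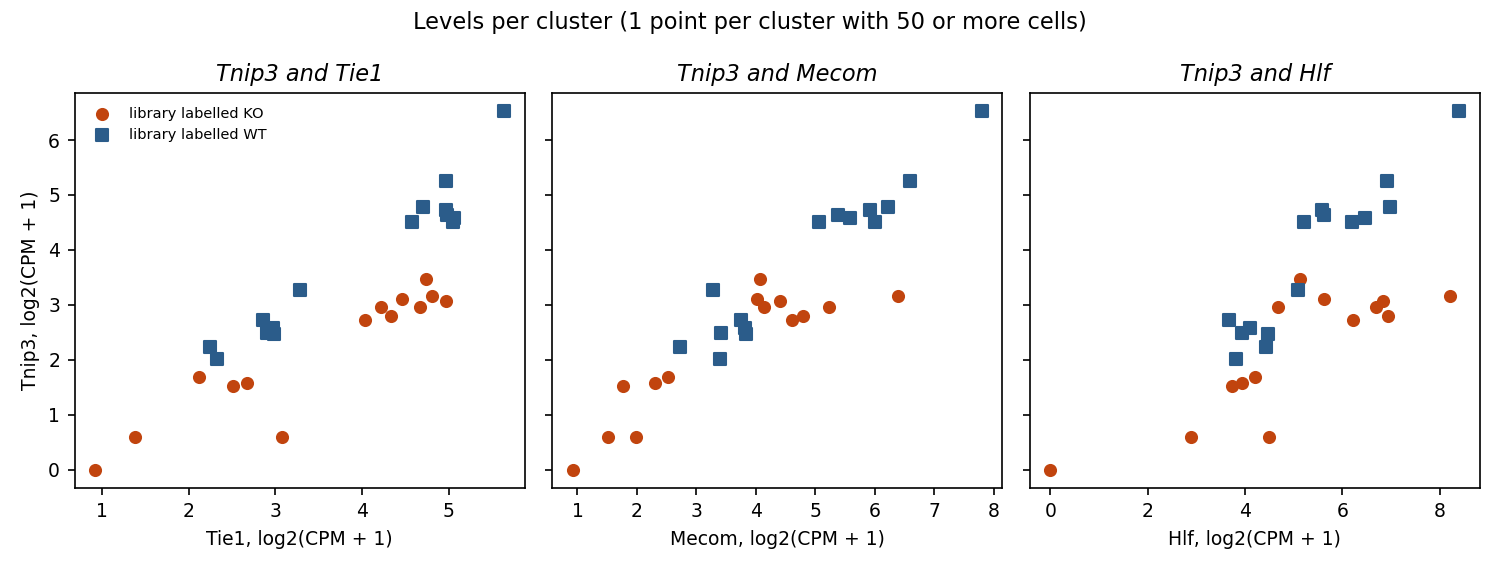
Tnip3 level against that of Tie1, Mecom and Hlf, each as log2(CPM + 1), with 1 point per cluster of at least 50 cells in the library labelled KO (orange circles) and the library labelled WT (blue squares). In the KO-labelled library the cluster with most Tnip3 is not the one with most of any of the 3 genes, and in the WT library the stem-like cluster is highest on each axis. The stem-like cluster lies at 3.17 on the Tnip3 axis in the KO-labelled and 6.52 in the WT library.

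Among the 10 genes themselves, the level of Tnip3 had correlations with the others from 0.459 (Tlr4) to 0.802 (Traf1) over KO-labelled clusters, and from 0.078 (Tnfaip3) to 0.654 (Tlr4) over WT clusters. The highest pair was Nfkbia with Nfkb1 over KO-labelled clusters (0.948, Spearman 0.789), a pair that stood at 0.333 over WT clusters (Spearman 0.414). Nfkbia with Traf1 stood at 0.622 over KO-labelled clusters (Spearman 0.662) and was the highest pair over WT clusters, at 0.877 (Spearman 0.904). The points of each library share that library and differ in depth, so no test is given.

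Cell by cell, after thinning, 163 KO-labelled and 739 WT cells had a Tnip3 UMI. In the KO-labelled library such cells had 12.3 CPM of Traf1, on 6 UMIs, against 4.25 CPM in cells without one, a ratio of 2.89 (1.04 to 6.45). In the WT library they had 10.8 CPM, against 3.73 CPM in cells without one, a ratio of 2.90 (1.77 to 4.58). For Nfkbia the ratio was 1.01 (0.723 to 1.37) in the KO-labelled and 1.44 (1.26 to 1.65) in the WT library, and for Rel 1.39 (0.690 to 2.51) in the KO-labelled and 1.62 (1.17 to 2.20) in the WT library. WT cells with a Tnip3 UMI were also higher in Nfkbiz (ratio 2.0, 1.21 to 3.15) and Relb (1.85, 1.08 to 3.02), but not beyond counting error in Tnfaip3 (0.704, 0.252 to 1.59) or Nfkb1 (1.01, 0.868 to 1.18). They held more Procr (3.54) and Mecom (2.20) and less Mpo (0.236), Elane (0.159) and Klf1 (0.182) than WT cells without one. The part of the kind of cell in the higher regulator levels was not tested.

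Immediate early genes, which respond within minutes to stimulation, differed between the libraries. Of 12 at 20 CPM 11 had a ratio above 1, beside 34.9% of all genes at that level, and the median log2 ratio was 0.39. At least 1.5-fold apart were 4 higher, beside 2.25% of all such genes, and 1 lower, beside 2.03%. The lower one was Egr1, with 14.6 CPM in KO-labelled and 22.5 CPM in WT cells (ratio 0.649). Fos had 78.1 CPM in the KO-labelled and 40.7 CPM in the WT library, and Jun 426 CPM in KO-labelled and 314 CPM in WT cells. Cells were therefore split by the summed UMIs of the 19 genes of that list after thinning. In cells with at most 2 such UMIs Tnip3 had 4.68 CPM in the KO-labelled and 23.7 CPM in the WT library (ratio 0.198). In cells with 6 or more it had 5.98 CPM in KO-labelled and 42.3 CPM in WT cells (ratio 0.141).

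Several regulators had higher levels in cells with more immediate early UMIs in each library, a description with no test. Nfkbia had 73.6 CPM in KO-labelled and 66.4 CPM in WT cells with at most 2 immediate early UMIs, and 96.2 CPM in KO-labelled and 105 CPM in WT cells with 6 or more. Nfkbiz had 2.19 CPM in KO-labelled and 3.86 CPM in WT cells in the low stratum and 5.72 CPM in KO-labelled and 9.37 CPM in WT cells in the high one. Relb had 4.08 CPM in KO-labelled and 3.21 CPM in WT cells in the low stratum and 8.41 CPM in KO-labelled and 9.04 CPM in WT cells in the high one, so its ratio was 1.27 in the low stratum and 0.930 in the high one, each with an interval that included 1. Tnfaip3 had 2.99 CPM in KO-labelled and 3.70 CPM in WT cells in the low stratum and 4.77 CPM in KO-labelled and 4.68 CPM in WT cells in the high one.

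Sex of the cells gave close values within the KO-labelled library. Its male cells had 5.47 CPM of Tnip3 and its female cells 5.04 CPM, a ratio of 1.08 (0.812 to 1.43). Between male cells of the KO-labelled library (58 UMIs) and male cells of the WT library, at 23.2 CPM, the ratio was 0.236 (0.178 to 0.306). For Relb the male ratio was 1.35 (1.0 to 1.79) and for Nfkb1 1.12 (1.04 to 1.20), while those of Nfkbiz (0.728) and Tlr4 (0.728) had intervals that included 1.

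The wider pathway was read from a list of 126 genes in 8 roles, which includes the 10. Of these 38 reached 20 CPM in either library, 23 of them with a ratio above 1 and 15 below. Among all genes at that level 34.9% had a ratio above 1. The median log2 ratio of the 38 was 0.049, beside -0.070 over all genes at that level. At least 1.5-fold apart were 5 (13.2% of 38, beside 4.29% of all such genes): 1 higher, beside 2.25%, and 4 lower, beside 2.03%. Tnip3, chosen for its difference, is among them: without it 4 of 37 (10.8%) were that far apart, 1 higher and 3 lower, and nothing is read from the count with it. Tnip3 and Irak3 reached 20 CPM through the WT library alone. Under TMM scaling 3 were higher and 4 lower, and between male cells 1 was higher and 2 were lower. The 4 lower genes were Tnip3, Irak3, Ccnd1 and Ltb, and the higher one was Pim1. At 5 CPM, 9 of 78 were at least 1.5-fold apart, beside 6.81% of all genes at that level.

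Ligand genes were few: of 11, 3 reached 5 CPM. Ltb, which encodes lymphotoxin beta, had 28 CPM in the KO-labelled and 45.9 CPM in the WT library (ratio 0.610), and in the stem-like cluster 132 CPM in KO-labelled and 287 CPM in WT cells (ratio 0.460). Tnfsf14 was the highest of the role, at a ratio of 1.18. Receptor genes at 5 CPM had ratios from 0.902 (Il1rap) to 1.92 (Il1rl1). Il1rl1, the receptor of interleukin 33, had 11 CPM in the KO-labelled and 5.74 CPM in the WT library, with a UMI in 1062 KO-labelled and 510 WT cells.

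Adaptor genes stood at both ends. Irak3, a kinase-dead relative of the IRAK kinases that restrains Toll-like receptor signalling, had 13.1 CPM in the KO-labelled and 24.1 CPM in the WT library (ratio 0.544), and was lower in 12 of 13 clusters, with 18.3 CPM in KO-labelled and 41.8 CPM in WT cells in the stem-like cluster. Irak2, a kinase of the same family that passes the signal on, had 5.50 CPM in KO-labelled and 3.26 CPM in WT cells (ratio 1.69). Kinase genes at 5 CPM were within 0.852 (Map3k7) and 1.08 (Tab1).

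Among genes for inhibitors and other brakes, Bcl3, a nuclear relative of the inhibitors, had 5.52 CPM in the KO-labelled and 2.83 CPM in the WT library (ratio 1.95), with more in the KO-labelled library in 10 of 10 clusters that had 20 UMIs. Pdlim2 had a ratio of 1.42. The relatives of Tnip3 were near 1: Tnip1 had 20.3 CPM in KO-labelled and 19.1 CPM in WT cells (ratio 1.06) and Tnip2 15.0 CPM in KO-labelled and 13.9 CPM in WT cells (ratio 1.08).

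Of the target genes, Pim1, a survival kinase, had 159 CPM in the KO-labelled and 87.3 CPM in the WT library (ratio 1.82) and was higher in 13 of 13 clusters. Ccnd1, the cyclin D1 gene, had 23.0 CPM in KO-labelled and 41.9 CPM in WT cells (ratio 0.549) and was lower in 13 of 13. The chemokine gene Ccl2 had 8.64 CPM in the KO-labelled and 0.843 CPM in the WT library, a ratio of 10.2, with a UMI in 753 KO-labelled and 88 WT cells. In the stem-like cluster it had 98 UMIs in KO-labelled and 1 UMI in WT cells, a ratio of 70.2 with an interval of 12.3 to 2801. Genes of macrophages, another source of Ccl2, summed to 15.5 CPM in the KO-labelled and 18.5 CPM in the WT library over 7 genes, with 4 higher and 3 lower and none at 0, and their part in this was not tested.

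**Figure D5:**
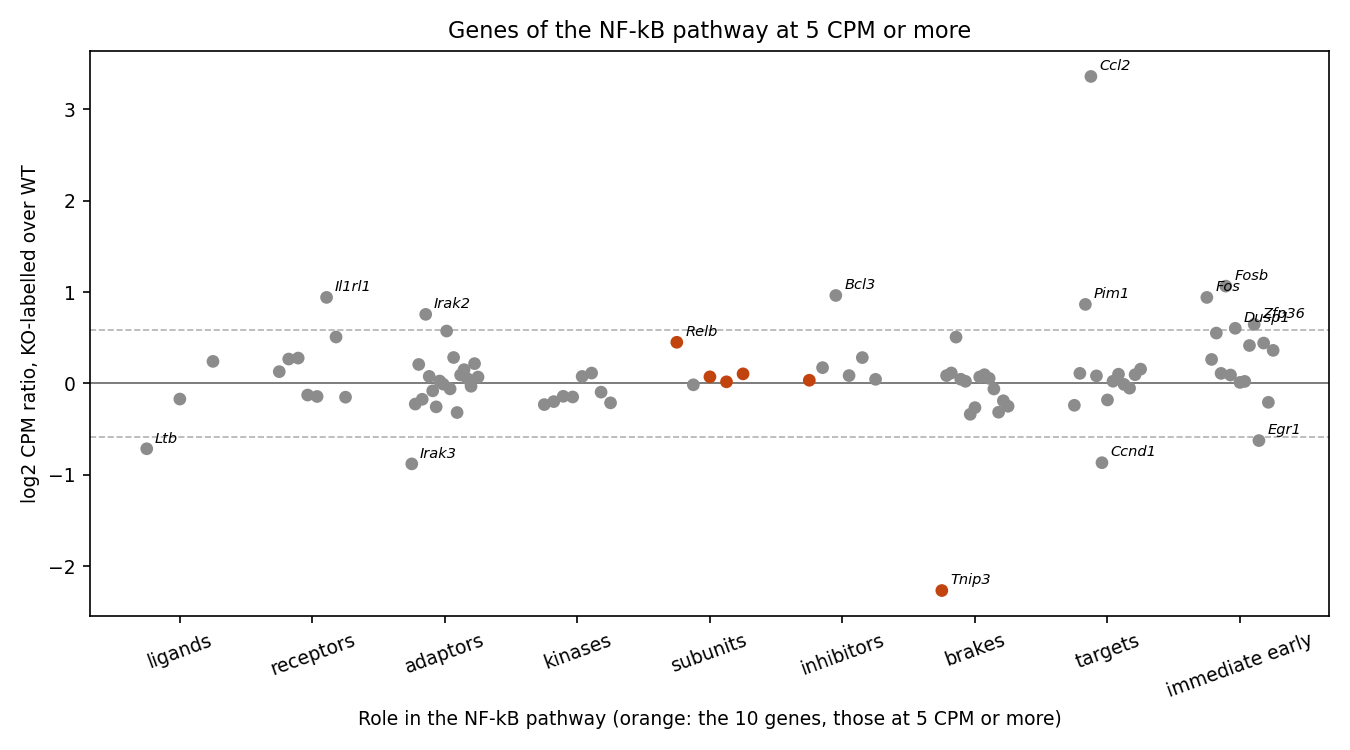
log2 CPM ratio, KO-labelled over WT, of each pathway gene at 5 CPM or more in either library, by role, with the 10 genes in orange and dashed lines at 1.5-fold. Tnip3 at -2.26 lies lowest and Ccl2 highest, while most genes lie between the lines.

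Some genes within 1000 kb of Tnip3 on chromosome 6 were looked at as well. Mad2l1 and Smarcad1 had ratios of 0.893 and 0.980. Hpgds, a prostaglandin synthase gene on the minus strand, was higher, with 6.77 CPM in KO-labelled and 2.79 CPM in WT cells (ratio 2.43, 2.13 to 2.78). This window was chosen with earlier results known.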

How the data were processed

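Single-cell RNA-seq counts of 2 libraries, 1 labelled RUNX1 KO and 1 labelled RUNX1 WT, were used as the authors deposited them: raw UMI counts per gene and barcode. Per the submitters' processing notes, Cell Ranger 2.1.1 and mm10 were used; per the file headers the version was 3.1.0. The labels' protocols name the 3′ v2 kit. The members and lists were chosen with earlier results of these data known.

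Kept cells had 500 or more genes and no more than 10% mitochondrial UMIs, and doublets were not removed. UMIs were summed and scaled to 1000000 (CPM). Sums have exact Poisson, ratios exact conditional binomial and shares exact Clopper-Pearson 95% intervals. 3′ tags are not divided by length. Shares are of cells thinned without replacement to 3000 UMIs, which left out 91 KO-labelled and 155 WT cells. Clusters used 2000 variable genes, 30 components, 20 neighbours and Leiden resolution 0.8 (scanpy 1.11.5, leidenalg 0.10.2), leaving out the 10 genes, genes 1.5-fold apart, and ribosomal, mitochondrial, sex-linked, haemoglobin and unnamed genes. Ratios by cluster needed 20 UMIs.

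Named pathway genes were those 1.5-fold apart at 20 CPM and the highest and lowest ratio of each role at 5 CPM; Rela, Tnip1 and Tnip2 are shown beside them. Genes like Tnip3 were the 8 highest correlations over WT clusters; some results are not reported here. Positions are from GENCODE M21 (GRCm38), matched by gene ID. Alternatives covered scaling (edgeR 4.0.16 TMM among them), filters, depth, sex, weights and thresholds. The ratio step was tested on simulated data. With 1 library per genotype no test across samples was possible. The scripts ran in Python 3.11.15 with scipy 1.17.1, pandas 2.3.3 and numpy 2.4.6.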

Additional observations from a re-analysis of the deposited data

Results flagged for a closer look

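Rel was flagged because its ratio lay above 1 in one class of cells and below 1 in others, with counting intervals on opposite sides of 1. In Procr-positive cells the ratio, KO-labelled over WT, was 1.38. It was 0.810 in Car1-positive cells and 0.854 in cells with none of the 4 markers. In Car1-positive cells the interval included 1 with cells thinned to 3000 UMIs (ratio 0.910, 0.636 to 1.30) and with cells of only that class (ratio 0.803, 0.608 to 1.06). The difference between classes was not tested, since there was 1 library per genotype, and the classes share cells and differ in depth.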

How the results depend on the processing

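No paired analysis was possible because there was 1 library per genotype and the labels number no replicates. The Tnip3 ratio of 0.208 ran from 0.178 to 0.284 over 10 alternatives. It was 0.284 under the stricter cell filter (1000 genes, 5% mitochondrial UMIs), where Tnip3 had 5.02 CPM in the KO-labelled and 17.7 CPM in the WT library, 0.178 with cells thinned to 3000 UMIs and 0.236 between male cells. The stricter filter took unequal parts of the libraries, leaving 8701 of 10769 KO-labelled and 4985 of 9472 WT cells. Of the 10 genes, 1 was 1.5-fold apart at 20 CPM, and 0 were under the stricter filter, as Tnip3 was then under 20 CPM. The pathway count of 5 was 3 between male cells, 9 with a floor of 5 CPM, 26 with no floor and 1 at 2-fold. TMM scaling made it 7, with 3 genes higher and 4 lower, beside 1 and 4. TMM moved the median log2 ratio over all genes from -0.070 to 0.032.

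Of 90 alternative ratios of the other 9 genes 13 lay on the other side of 1, and none of these genes was called. Traf1 did so in 7 of 10, Rel in 2 and Tnfaip3, Nfkbia, Nfkbiz and Nfkb2 in 1 each; Nfkbiz was at 1.02 under the stricter filter. Relb ran from 1.19 to 1.53 and Tlr4 from 0.723 to 0.990. In the 4 marker classes Tnip3 ran from 0.112 to 0.347 over 12 alternative values. Over the 10 genes 26 of 120 such class ratios lay on the other side of 1, Relb in Mpo-positive cells (0.902 with thinned cells) among them. Tnfaip3, Nfkbiz, Traf1 and Tlr4 had under 500 UMIs per library, which limits the precision of their ratios.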
